A study of Homo sapiens with 24 samples.

Results

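The response described here is that of H1975 cells to 24 h of Pirfenidone, outside set lists of genes of the cell cycle and of the stress response. H1975 is an established human lung adenocarcinoma line whose EGFR gene carries an activating and a resistance mutation. It was cultured for 24 h with 0.75 mg/ml Pirfenidone, an oral drug approved for idiopathic pulmonary fibrosis, in 3 samples, or with the same volume of PBS, its solvent, in 3 samples. These are 6 of the 24 samples of the series. The rest are H1975 cells after 6 h and A549 cells, another lung adenocarcinoma line, after 6 h and 24 h, in the same treatments with 3 samples each, and they entered the same fit. Total RNA of each sample was labeled with Cy3 and hybridized to 1 one-color Agilent array. The labels do not say whether the 3 samples of a group came from separate cultures. The p-values measure the spread between samples of a group, taken over all 24 samples, and this spread may be technical. At 24 h in H1975 the replicate numbers follow the run day written on the files, so that replicate 1, 2 or 3 with Pirfenidone is paired with the same number with PBS. At 6 h the numbers do not match the run days, and the block used the run days. Values are log2 intensities minus the 75th percentile of their array, so 0 is the level of a bright probe and a difference of 1 is a change of 2-fold. A gene passed where its limma p, adjusted by Benjamini-Hochberg, was at most 0.05 and its change at least 2-fold, and it is represented by its brightest probe. Levels of different genes are not compared, because probes differ in brightness.

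On the 6 arrays 66.3% to 69.5% of probes exceeded background well, and no spot was saturated. All 10 epithelial markers examined, among them EPCAM and CDH1, exceeded it on each of the 6 arrays. Of 10 fibroblast markers 4 (COL1A1, COL1A2, PDGFRB and FAP) were above it on all 6 arrays and 5 (COL3A1, DCN, LUM, PDGFRA and POSTN) on none, and of 10 endothelial markers 4 were above it on all and 6 on none. Of 9 leukocyte markers on the array, 6 were above background on every array. Replicates 1 and 2 lay closer to each other than to replicate 3. Over probes measured on all arrays, the SD of the log2 difference between replicates 1 and 2 was 0.217 with PBS and 0.184 with Pirfenidone, against 0.453 to 0.466 between either of them and replicate 3, and it was about 0.094 between repeated spots of a probe within these arrays. They differed by more than repeated spots and were kept as separate samples, but whether they share a culture is not known, so counts are also given with replicates 1 and 2 averaged to 1 sample, a choice made after these values were seen. The PBS array of replicate 1 lay alone on its slide, and the other replicates shared 1 slide per pair. On every slide the treatment and time set the place of a sample, so place and treatment cannot be told apart.

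Pirfenidone is studied for its action on fibrosis, where TGFβ makes fibroblasts deposit matrix. Cells that sense a shortage of amino acids or damaged proteins slow protein synthesis and make the transcription factor ATF4, which switches on genes for amino acid uptake, amino acid synthesis and tRNA charging. These programs, lipid handling, matrix and surface proteins, growth factor signaling and immune ligands were followed as gene lists beside the cell cycle and stress genes that were set aside. Lists and members were chosen with earlier results of these data known. Their counts beside those of all genes are therefore a description and no test. Of 16561 genes tested, 166 (1%) passed higher and 175 (1.06%) passed lower with Pirfenidone, both directions together being 2.06%. Counted as probes, 0.89% passed higher and 1% lower. The cell cycle lists held 103 of the genes that passed lower, 35.9% of their 287 genes tested, and none that passed higher, where 2 genes were higher at an unadjusted p of 0.05 in limma and none passed with the replicate pair as a block. The stress list held 12 genes that passed higher, 24% of its 50 genes tested. Without the Pirfenidone array of replicate 3 these counts were 5 and 5, without both replicate 3 arrays 3 and 4, without the PBS array of replicate 1 43 and 9, without that of replicate 2 63 and 9, without that of replicate 3 45 and 10, without the replicate 1 pair 17 and 8, without the replicate 2 pair 38 and 9, and with replicates 1 and 2 averaged 26 and 9. What remained were 226 genes, of which 154 were higher (0.949% of 16224 genes) and 72 lower (0.444%). The lists do not hold every gene tied to cell division, and 10 of the 72 were replication-dependent histone genes. The lower genes are therefore not all outside the cell cycle.

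**Figure D1:**
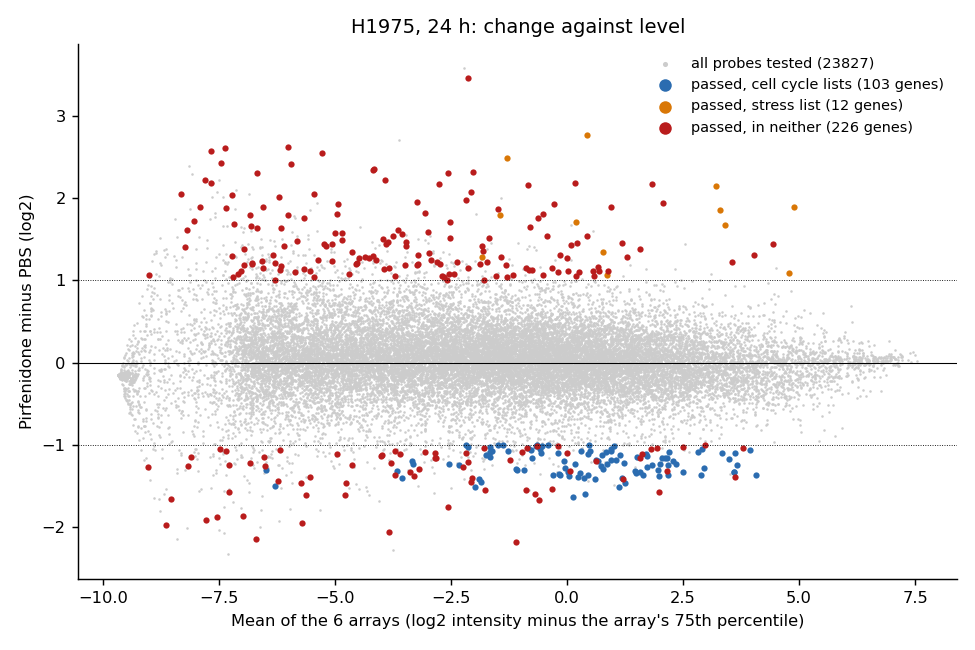
Change with Pirfenidone at 24 h in H1975 cells (vertical axis, log2) against the mean level of the 6 arrays (horizontal axis, log2 intensity minus the 75th percentile), with all 23827 probes tested in gray and the genes that passed in color. The 103 cell cycle genes lie below the line of -1 and the 12 stress genes above the line of 1, while the 226 genes in neither lie on both sides and at all levels.

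All 226 genes changed in the same direction in each of the 3 replicate pairs, and the arrays of the treatments did not overlap for 151 of the 154 higher and 71 of the 72 lower genes, against 33.4% of all genes tested (17.6% higher and 15.9% lower). The 226 were selected on these same arrays, so these counts follow largely from the selection and add no separate support. Of the higher genes, 119 exceeded background well on each of the 6 arrays and 22 on no PBS array, so that their level with PBS is only a bound. Among the lower genes the count on all 6 arrays was 56, and 12 were well above background on no Pirfenidone array. All 226 also passed the adjusted p when the replicate pair entered the fit as a block. With that block 1.77% of all genes passed higher and 1.43% lower, and 408 genes outside the set-aside lists passed, 281 of them higher. The count depended on replicate 3. Without both replicate 3 arrays 46 genes passed, 39 of them among the 226, without the Pirfenidone array of replicate 3 the count was 71, without the replicate 1 pair 102, without the replicate 2 pair 120, and without the PBS array of replicate 1 it was 124. With replicates 1 and 2 averaged to 1 sample 101 genes passed, 68 of them higher and 83 of them among the 226. Among the genes named below the calls of SLC7A11, PHGDH, PSAT1, FLJ43315, CHAC1 and CSRP3 held under every setting that tested them, replicates 1 and 2 averaged included, and so did those of KLHDC7B, FGF19, CRY1 and GRPR with that average and whichever arrays of a replicate were left out, and those of CSTA, ECM2, ALDH1L2, SLC1A4, DUSP6, NDRG1, ULBP1, TMPO-AS1 and H1FX-AS1 without any 1 array but not without every pair. FGF19 entered the test only through its level with Pirfenidone, and its call was lost after normexp background correction. Leaving out the Pirfenidone array of replicate 3 ended 39 calls of named genes. A total of 124 higher and 58 lower genes belonged to none of the 48 function lists.

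Single genes for making serine and for moving amino acids into the cell rose. Of the 22 genes of the serine, one-carbon and transsulfuration list, 5 passed higher and none lower, and 9 rose and 1 fell at an adjusted p of 0.05 or less regardless of size, where 3.22% and 3.54% of all genes did. With the replicate pair as a block none passed lower either, and 2 genes of the list were lower at an unadjusted p of 0.05. The median log2 fold change of the list was 0.49 against 0.03 over all genes tested. PHGDH, the first enzyme of serine synthesis, had log2 levels of 0.99, 1.02 and 1.29 with PBS and 2.88, 2.89 and 3.34 with Pirfenidone. All Pirfenidone arrays were more than 1 unit above the PBS arrays, and the log2 fold change was 1.94 ± 0.22 (standard error, adjusted p = 9.0e-05 by limma). Its probe lies on chromosome 1 of hg19 from 120285529 to 120285588. PSAT1, the next enzyme of the path, had levels of 3.40, 3.52 and 3.20 with PBS and 4.55, 4.61 and 4.87 with Pirfenidone, giving a log2 fold change of 1.30 ± 0.16 (standard error, adjusted p = 2.2e-04 by limma). Both genes kept their call in all 20 alternative settings. The mitochondrial folate enzyme ALDH1L2 rose by 1.82, the cysteine-forming enzyme CTH by 1.28 and the alanine aminotransferase GPT2 by 1.05 on the log2 scale, with limma adjusted p of 0.00504, 0.0187 and 3.3e-04. PSPH, the last enzyme of serine synthesis, rose by 0.42 (limma adjusted p = 0.0269), below the 2-fold limit. The transsulfuration enzyme CBS (0.97), the folate enzyme MTHFD2 (0.77) and the proline-forming PYCR1 (0.57) rose below that limit too, and SHMT1, the cytosolic serine hydroxymethyltransferase, fell by 0.86 on the log2 scale (limma adjusted p = 0.00743). Without both replicate 3 arrays 2 genes of the list passed, PHGDH and PSAT1, and without the Pirfenidone array of replicate 3 or the PBS array of replicate 1 the count was 3. With replicates 1 and 2 averaged 5 passed, CTH no longer among them.

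Of 17 amino acid transporters tested, SLC7A11 and SLC1A4 passed higher and none passed lower, 6 rose and none fell at any size, and the median log2 fold change was 0.39. No transporter passed lower with the replicate pair as a block, while 2 were lower at an unadjusted p of 0.05. SLC7A11 exchanges glutamate for cystine at the plasma membrane. Its log2 levels were -0.73, -0.70 and -1.32 with PBS and 1.05, 1.19 and 1.57 with Pirfenidone. Each Pirfenidone array lay above each PBS array, the differences of the 3 pairs were 1.78, 1.88 and 2.89, and the log2 fold change was 2.19 ± 0.27 (standard error, adjusted p = 2.4e-04 by limma). SLC1A4, a transporter of neutral amino acids including serine, rose by 1.54 on the log2 scale (limma adjusted p = 0.00135). Increases below 2-fold were found for SLC7A5 (0.91) and SLC3A2 (0.73), which together import leucine, for the glycine transporter SLC6A9 (0.88) and for the glutamine transporter SLC1A5 (0.66). The count of 6 was 4 without the Pirfenidone array of replicate 3 and 1 without both replicate 3 arrays, where SLC7A11 alone passed. The list median differed between pairs, with 0.21, 0.23 and 0.72 in pairs 1 to 3.

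None of the 20 cytosolic aminoacyl-tRNA synthetases, which load amino acids onto tRNA, passed the 2-fold limit, also with the replicate pair as a block, and 9 rose and 1 fell at any size, with 9 higher and 4 lower at an unadjusted p of 0.05. The count of 9 was 3 without the Pirfenidone array of replicate 3, 2 without both replicate 3 arrays, 6 without the PBS array of replicate 1, 5 and 4 without the replicate 1 and replicate 2 pairs and 5 with replicates 1 and 2 averaged, and the 1 fall was lost whenever an array was left out. The median log2 fold change was 0.26. AARS had log2 levels of 1.11, 1.14 and 1.27 with PBS and 1.84, 1.85 and 2.14 with Pirfenidone, with no overlap and a log2 fold change of 0.77 ± 0.10 (standard error, adjusted p = 5.1e-04 by limma). WARS, GARS, CARS, SARS, YARS, EPRS, IARS and TARS rose by between 0.40 and 0.79, and HARS fell by 0.57 on the log2 scale. ASNS, the asparagine synthetase of the stress list, rose by 1.89 (limma adjusted p = 5.7e-05). FLJ43315, an asparagine synthetase pseudogene, rose by 2.08, and since its sequence is close to that of ASNS its signal may not be its own, which was not tested. CHAC1, an enzyme that breaks down glutathione and a gene of the stress list, had log2 levels of -0.95, -0.94 and -1.0 with PBS and 1.61, 1.58 and 2.24 with Pirfenidone and rose by 2.77 ± 0.36 (standard error, adjusted p = 3.8e-04 by limma) on the log2 scale.

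**Figure D2:**
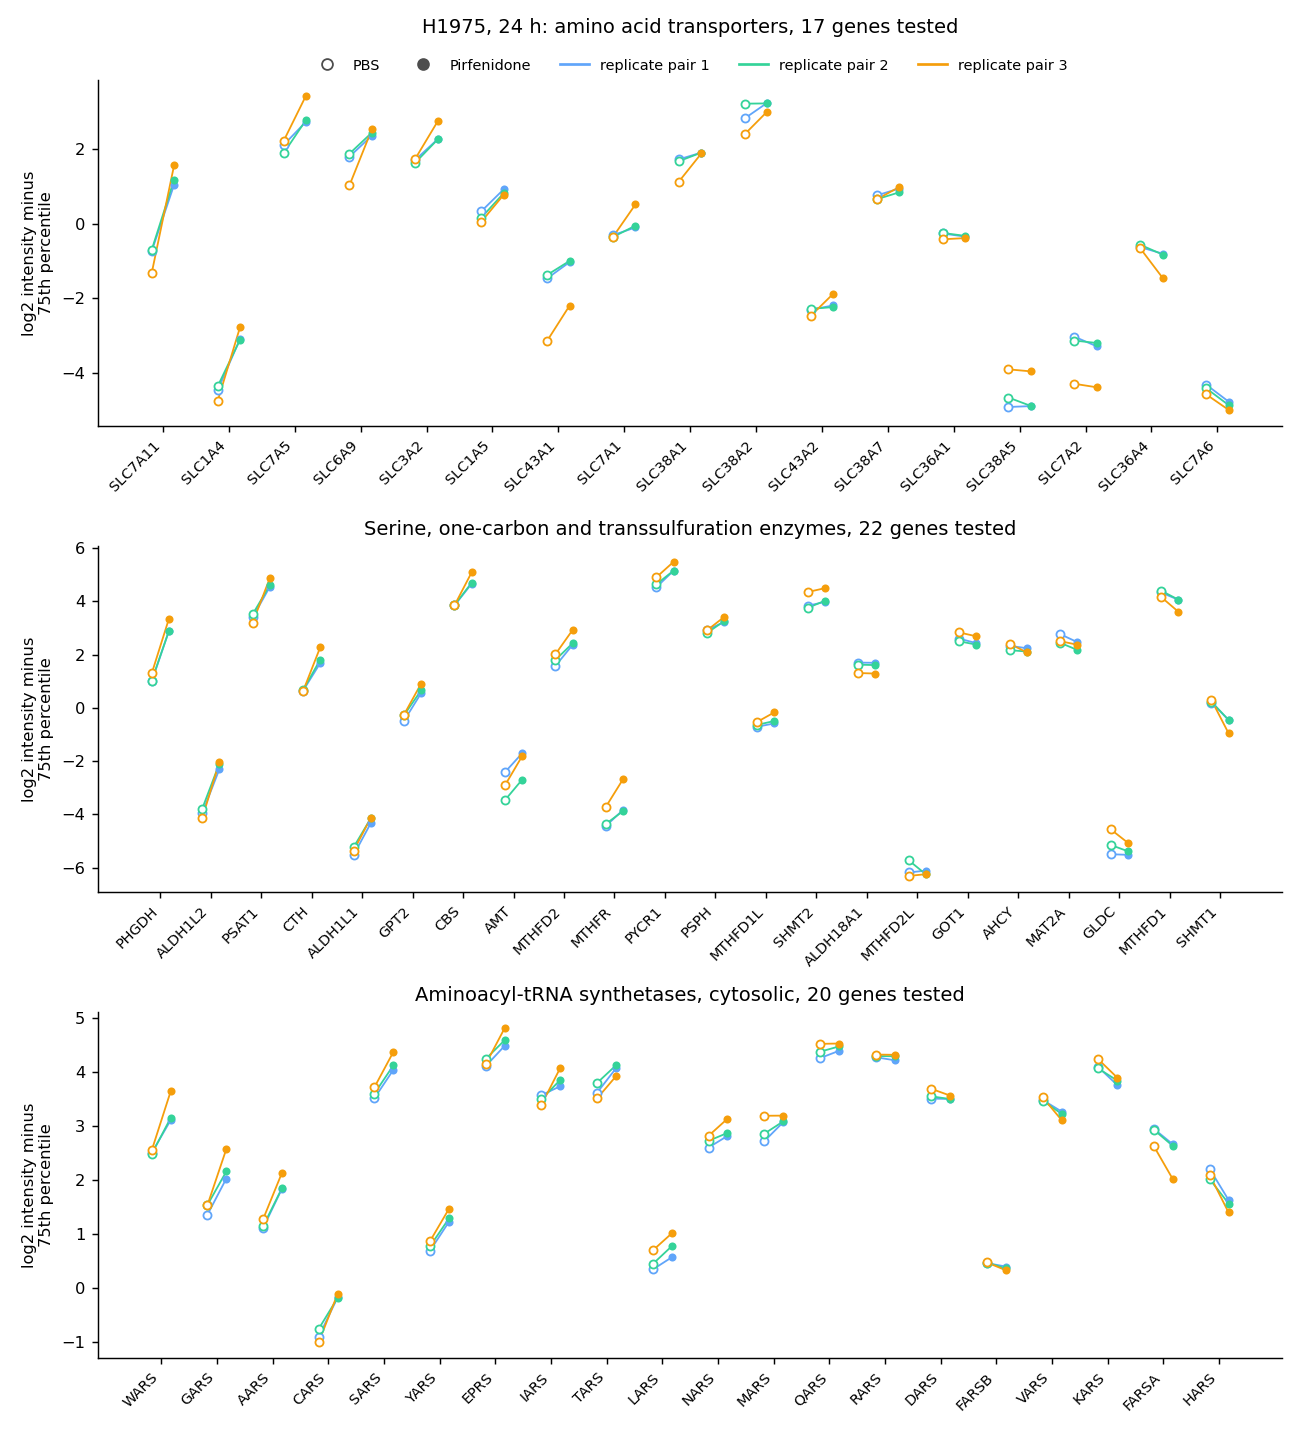
Levels (vertical axis, log2 intensity minus the 75th percentile) of the genes tested in the 3 amino acid lists in H1975 cells at 24 h, with open points for PBS, filled points for Pirfenidone and a line for each replicate pair. PHGDH, PSAT1, SLC7A11 and SLC1A4 rise in all 3 pairs, and most tRNA synthetases on the left of their panel rise by less than 1 unit.

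ATF4 and its partners bind a C/EBP-ATF response element, and matches to TGATGNAA on either strand were searched in the RefSeq promoters of assembly GRCh38.p14, from 250 bases before to 50 after the start of each gene. It was found in 3.67% of all 27305 promoters and in 1.9% of the 12433 promoters of genes tested. Promoters were matched for 104 of the 154 higher genes outside the set-aside lists, and 8 of them (7.69%) held the element. It was found in 3 of 11 promoters of the stress genes that rose (27.3%), in 6 of 16 of tRNA synthetases (37.5%), in 3 of 15 of amino acid transporters (20%) and in 2 of 16 of the serine list (12.5%). Promoters of genes that fell held it in 4 of 50 (8%) outside the cell cycle lists and in 2 of 85 (2.35%) within them. The antioxidant response element TGACNNNGC and the xenobiotic response core GCGTG, searched the same way, were found in 10.6% and 39.4% of promoters of the higher genes, and in 15% and 48.1% of promoters of genes tested. The elements are short, and the first and the antioxidant element can overlap. A match is a stretch of letters, and binding was not measured. The 2 promoters of the serine list that held the C/EBP-ATF element were those of GOT1 and MTHFD1L, which did not pass at any size. The log2 fold changes of these genes were -0.15 and 0.21 (limma adjusted p = 0.674 and 0.283). No gene of that list that rose had a match in its promoter. The stretches below show the match in capitals, each read 5′ to 3′ on the strand of its gene, so that TTGCATCA and TTTCATCA are matches on the opposite strand. Stretches are given only for genes that changed. They come from 3 amino acid response genes, from 4 with a rise above 2-fold whose function lies elsewhere, and from KLK6, which fell. Their positions are chr15:40953242-40953289 for CHAC1, chr16:70289666-70289713 for AARS1 (AARS on the array), chr9:92293698-92293730 for IARS1 (IARS on the array), chr22:50545728-50545775 for KLHDC7B, chr6:41286772-41286819 for TREM1, chr4:6693735-6693782 for S100P, chr19:4518639-4518686 for PLIN4 and chr19:50969727-50969774 for KLK6. AARS1, IARS1, TREM1, PLIN4 and KLK6 lie on the minus strand and the others on the plus strand.
CHAC1: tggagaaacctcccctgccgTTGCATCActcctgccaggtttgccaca
AARS1: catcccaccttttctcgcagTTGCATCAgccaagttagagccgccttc
IARS1: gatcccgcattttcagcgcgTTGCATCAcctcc
KLHDC7B: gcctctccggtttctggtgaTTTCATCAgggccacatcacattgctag
TREM1: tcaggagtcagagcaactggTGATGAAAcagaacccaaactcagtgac
S100P: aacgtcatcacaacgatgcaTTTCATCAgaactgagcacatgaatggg
PLIN4: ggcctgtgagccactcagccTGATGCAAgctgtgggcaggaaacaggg
KLK6: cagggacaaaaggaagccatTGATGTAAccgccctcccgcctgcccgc

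The largest increases outside the set-aside lists, among genes well above background on all 6 arrays, came from genes of different functions. By measured difference HHIPL1, OLAH, NDUFA4L2 and BEST1 rank with them, but they were well above background on 1 or no PBS array and are left out. OLAH and NDUFA4L2 were at least 2.31-fold and 1.84-fold higher. KLHDC7B, which encodes a kelch domain protein, had log2 levels of -3.84, -3.90 and -3.89 with PBS and -1.17, -1.15 and 1.08 with Pirfenidone, and its log2 fold change was 3.46 ± 0.55 (standard error, adjusted p = 0.00217 by limma). The PBS arrays lay close together, while the Pirfenidone array of replicate 3 was far above the others of its group. Its other probe gave a log2 fold change of 3.58, and its call was lost in 1 of 19 alternative settings. The probe lies on chromosome 22 of hg19 from 50988455 to 50988514. CSTA, the protease inhibitor cystatin A of epithelial cells, had levels of -6.49, -6.50 and -6.69 with PBS and -4.30, -4.14 and -3.57 with Pirfenidone and a log2 fold change of 2.55 ± 0.43 (standard error, adjusted p = 0.00364 by limma). No array overlapped between the groups.

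Among genes above background on all 6 arrays the next increases were those of TREM1 (2.35), a receptor of myeloid cells that amplifies inflammation, and ATP6V0D2 (2.34), a subunit of the proton pump of acidic organelles. AGR2 (2.30), a disulfide isomerase of mucus-secreting cells, and SCARA5 (2.22), a scavenger receptor that takes up ferritin, came next. ECM2 (2.17), a matrix protein, ADAM8 (2.17), a membrane metalloprotease, S100P (2.16), a calcium-binding protein, and KCNG1 (1.97), a potassium channel subunit, followed, with limma adjusted p between 0.00743 and 0.0208 for these 8 genes. SLC7A11 and FLJ43315, given above, also lie among them by size. C17orf107 (2.32) does too, but it carries a placeholder name and was not followed. Of these calls, those of ADAM8 and KCNG1 were each lost in 10 of 20 alternative settings, that of ATP6V0D2 in 9 of 19, of AGR2 in 8 of 20, of SCARA5 in 7 of 20, of TREM1 in 7 of 19, of S100P in 5 of 20 and of ECM2 in 3 of 20. The other probe gave 2.05 for TREM1 and 2.39 for ECM2, but 0.39 for SCARA5. Of 27 higher genes with more than 1 tested probe, another probe passed in the same direction for 8.

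The largest decreases outside the set-aside lists included a DNA helicase and histone genes, which the cell cycle lists do not hold, beside genes of other functions. CSRP3, a LIM protein best known from muscle, fell most among the genes measured above background on each array, with log2 levels of 0.23, 0.13 and -0.37 with PBS and -1.88, -1.98 and -2.69 with Pirfenidone. The groups did not overlap, and the log2 fold change was -2.18 ± 0.29 (standard error, adjusted p = 4.5e-04 by limma), a call kept in all 19 alternative settings that tested its probe. That probe lies on chromosome 11 of hg19 from 19204050 to 19204109. RIMS2 (-2.06), a protein of vesicle release, fell too, with its call lost in 9 of 19 alternative settings. PIF1, a DNA helicase, had levels of 0.44, -0.18 and 0.40 with PBS and -1.19, -1.59 and -1.57 with Pirfenidone, without overlap, and a log2 fold change of -1.67 ± 0.43 (standard error, adjusted p = 0.0271 by limma). Its call was lost in 9 of 20 alternative settings. The antisense transcripts TMPO-AS1 (-1.61) and H1FX-AS1 (-1.61), the aurora kinase A pseudogene AURKAPS1 (-1.55) and GRPR (-1.47), the receptor of gastrin-releasing peptide, were also among the 12 largest decreases once placeholder names are left out. The signal of AURKAPS1 may include that of AURKA, whose sequence it shares.

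Of 51 replication-dependent histone genes, whose transcripts are made in S phase, 10 passed lower and none higher, and none rose and 14 fell at any size, with 3 higher and 26 lower at an unadjusted p of 0.05. The median log2 fold change was -0.53, and it was -0.38, -0.34 and -0.92 in pairs 1 to 3. With the replicate pair as a block 17 passed lower and none higher. The count of 10 rested on replicate 3. It was 0 without its Pirfenidone array, where 2 histone genes fell at any size, 1 without its PBS array, 2 without the replicate 1 pair, 5 without the replicate 2 pair and 4 without the PBS array of replicate 1 or with replicates 1 and 2 averaged. HIST1H4L had log2 levels of 4.35, 4.23 and 4.34 with PBS and 3.57, 3.58 and 2.68 with Pirfenidone, and HIST1H1A, a linker histone, had levels of 2.76, 2.57 and 2.96 with PBS and 1.60, 1.52 and 0.43 with Pirfenidone. In both genes the Pirfenidone array of replicate 3 was the lowest of the 6. The log2 fold changes were -1.03 ± 0.18 (standard error, adjusted p = 0.00356 by limma) and -1.58 ± 0.36 (standard error, adjusted p = 0.0163 by limma). The other 8, HIST1H1B, HIST1H2AB, HIST1H2BE, HIST1H2BF, HIST1H3B, HIST1H4B, HIST1H4E and HIST2H2AC, fell by between 1.03 and 1.55 on the log2 scale. Histone genes share much of their sequence, so that signal between members is uncertain. BIRC5, which encodes Survivin, and MKI67, which encodes Ki67, both of the cell cycle lists, fell by 1.36 and 1.36 on the log2 scale (limma adjusted p = 0.0214 and 0.039). Their calls were lost in 8 and 12 of 20 alternative settings.

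**Figure D3:**
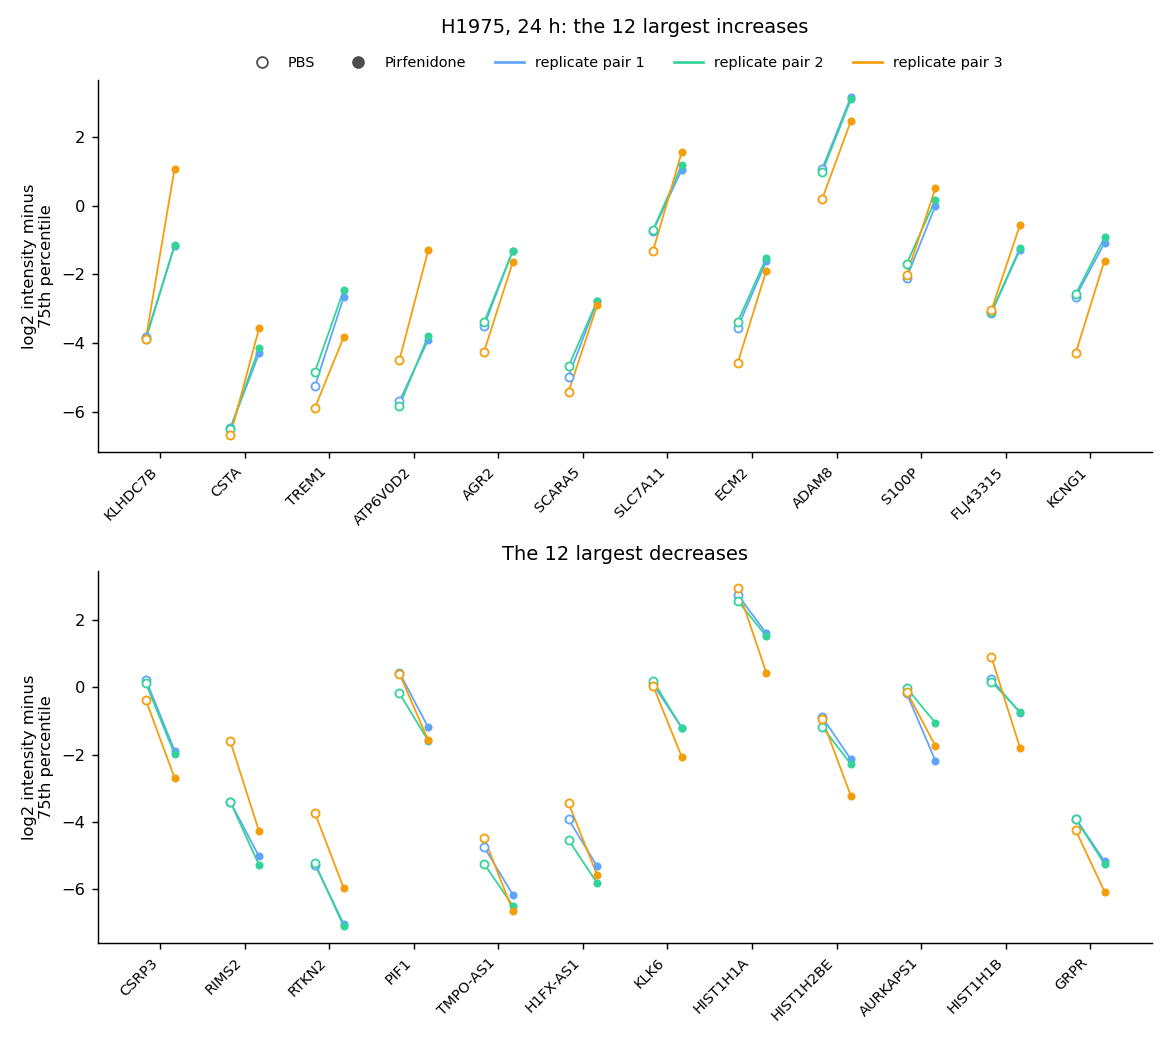
Levels (vertical axis, log2 intensity minus the 75th percentile) of the genes with the 12 largest increases and 12 largest decreases among those with a gene symbol (open reading frame, LOC and LINC names left out), above background on all arrays and outside the cell cycle and stress lists, in H1975 cells at 24 h, with open points for PBS, filled points for Pirfenidone and a line for each replicate pair. All lines of the upper panel rise and all lines of the lower panel fall, and pair 3 often starts or ends apart from the other pairs.

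Lists of the machinery of RNA and protein turnover had negative medians, with few members past the test. Among 40 splicing factors 38 had negative log2 fold changes, 9 fell and none rose at any size, and the median was -0.39, with -0.34, -0.35 and -0.59 in the 3 pairs. The count of 9 was 0 without both replicate 3 arrays, 1 without its Pirfenidone array, 1 without either other pair or with replicates 1 and 2 averaged, and 2 without any 1 of the PBS arrays. None passed the 2-fold limit, also with the replicate pair as a block, while 25 were lower and none higher at an unadjusted p of 0.05, where 11.3% and 12.2% of all genes were. SRSF2, a splicing factor rich in serine and arginine, had log2 levels of 4.05, 3.97 and 4.01 with PBS and 3.41, 3.31 and 3.04 with Pirfenidone, and its log2 fold change was -0.76 ± 0.13 (standard error, adjusted p = 0.00411 by limma). Ribosome biogenesis genes had a median of -0.34 (38 of 40 negative, 2 fell at any size), and proteasome subunits one of -0.26 (31 of 31 negative, 1 fell). No gene of these lists rose at any size and none passed the limit, while 19 and 17 were lower and none higher at an unadjusted p of 0.05. The nuclear-encoded subunits of the respiratory chain had a median of -0.16, with 1 of 44 lower at any size. The 60 cytosolic ribosomal proteins had a median of 0.04, and none was changed even at an unadjusted p of 0.05.

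Targets of the hypoxia-inducible factors had the highest median of any list, 0.55, with 0.53, 0.54 and 0.48 in the 3 pairs and 23 of 24 genes positive. A single member passed, NDRG1, a gene induced by low oxygen and by stress, with log2 levels of 3.81, 3.80 and 3.56 with PBS and 5.12, 5.13 and 5.21 with Pirfenidone. The groups did not overlap, and the log2 fold change was 1.44 ± 0.27 (standard error, adjusted p = 0.00574 by limma). Its call was lost without both replicate 3 arrays and in no other setting. A further rise below 2-fold was that of ANKRD37 (0.73), and 13 genes of the list were higher and none lower at an unadjusted p of 0.05. VEGFA (0.82) and ADM (0.82) did not pass at any size. Of 28 glycolysis and pentose phosphate genes none passed, also with the block, 5 were higher and 3 lower at an unadjusted p of 0.05, and the median was 0.04. SLC2A3, a glucose transporter, rose below 2-fold, by 0.95 ± 0.24 (standard error, adjusted p = 0.0248 by limma) on the log2 scale.

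Among lipid genes PLIN4, GRAMD1B and PPARA passed higher. PLIN4, a coat protein of lipid droplets, had log2 levels of -2.22, -2.08 and -2.95 with PBS and -0.43, -0.24 and -0.98 with Pirfenidone. Each pair rose by a similar amount, 1.79, 1.84 and 1.97, and the log2 fold change was 1.87 ± 0.39 (standard error, adjusted p = 0.0103 by limma). GRAMD1B, which carries cholesterol from the plasma membrane to the endoplasmic reticulum, rose by 1.71 ± 0.36 (standard error, adjusted p = 0.0113 by limma) on the log2 scale, and PPARA, a nuclear receptor that switches on fatty acid oxidation, by 1.15 (limma adjusted p = 0.0424), a call lost in 13 of 20 alternative settings. The other probe of PPARA gave 0.28, and the calls of PLIN4 and GRAMD1B were each lost in 6 of 20 alternative settings. The lists these genes belong to, of 23, 16 and 21 genes, had medians of 0.07, 0.22 and -0.01. Of 25 genes of cholesterol synthesis and uptake none passed in either direction, also with the block, and 1 was higher and 7 lower at an unadjusted p of 0.05, with a median of -0.23.

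TGFβ signaling has long been studied as a site of action of Pirfenidone in fibrosis. Of 37 genes for its ligands, their regulators, receptors and SMAD proteins, 2 passed higher and 1 lower, 3 rose and 1 fell at any size, and the median log2 fold change was 0.27. INHBE, an activin subunit, rose by 1.63 (limma adjusted p = 0.0357) from levels of -7.22, -7.27 and -6.45, of which 1 was well above background. LTBP1, which stores latent TGFβ in the matrix, rose by 1.06 (limma adjusted p = 0.0428). FST, which encodes the activin inhibitor follistatin, was well above background on 2 PBS arrays and on no Pirfenidone array, and it was at least 1.78-fold lower (limma adjusted p = 0.0359). These calls were lost in 11 of 19, 13 of 20 and 11 of 19 alternative settings.

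The ligand and receptor genes followed by name did not pass. TGFB1 had log2 levels of -1.30, -1.29 and -1.40 with PBS and -0.91, -1.11 and -1.18 with Pirfenidone, giving a log2 fold change of 0.27 ± 0.17 (standard error, adjusted p = 0.385 by limma). Its groups did not overlap, but it did not pass at any size without the block. TGFB2 (-0.21), TGFBR1 (0.31), TGFBR2 (0.36), SMAD2 (0.50), SMAD3 (-0.20), SMAD4 (0.09) and SMAD7 (0.46) had limma adjusted p between 0.0757 and 0.828. With the replicate pair as a block the adjusted p by limma was 0.0441 for TGFB1, 0.0423 for TGFBR2, 0.00489 for SMAD2 and 0.0036 for SMAD7, so these 4 rose below 2-fold in that fit, and the others named did not pass at any size there either. Of 28 genes that respond to TGFβ, among them PMEPA1, none passed in either direction and none changed at any size, while 6 were higher and none lower at an unadjusted p of 0.05, and the median was 0.21. With the replicate pair as a block 1 passed higher and none lower. Of 23 collagen genes none passed in either direction with or without the block, 3 were higher and 1 lower at an unadjusted p of 0.05, and the median was 0.32. Integrins and laminins had a median of 0.38 over 28 genes, of which ITGB3, an integrin that binds vitronectin and fibrinogen, passed. Its log2 levels were -0.64, -0.61 and -0.67 with PBS and 0.36, 0.49 and 1.02 with Pirfenidone, without overlap, and the log2 fold change was 1.27 ± 0.28 (standard error, adjusted p = 0.0135 by limma). The call was lost in 5 of 20 alternative settings.

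Keratins and proteins of the epithelial envelope changed one by one. Among 17 keratins KRT81, KRT86 and KRT14 passed higher and none lower, also with the block and with none lower at an unadjusted p of 0.05, and the list median was 0.17. No keratin passed without the PBS array of replicate 1 or without the Pirfenidone array of replicate 3, and 1 passed without both replicate 3 arrays or without the PBS array of replicate 2, while 2 passed with replicates 1 and 2 averaged. KRT81 had log2 levels of 2.70, 2.75 and 3.36 with PBS and 3.61, 3.70 and 5.15 with Pirfenidone. The Pirfenidone array of replicate 3 was the highest, and the PBS array of that replicate was the highest of its group, just below the lowest Pirfenidone array. Its log2 fold change was 1.22 ± 0.27 (standard error, adjusted p = 0.0135 by limma), and those of KRT86 and KRT14 were 1.38 and 1.28. The calls of KRT81, KRT86 and KRT14 were lost in 6, 3 and 13 of 20 alternative settings. KRT81 and KRT86 are hair keratins of near-identical sequence, so their signals may not be independent. In the envelope list of 20 genes CSTA and SPRR2A, a small proline-rich protein, passed higher, and KLK6, a secreted serine protease, passed lower. SPRR2A was well above background on 2 PBS arrays, and its log2 fold change of 1.80 (limma adjusted p = 0.0141) was lost in 8 of 19 alternative settings. KLK6 had log2 levels of 0.09, 0.19 and 0.04 with PBS and -1.20, -1.21 and -2.07 with Pirfenidone, without overlap, and fell by 1.60 on the log2 scale (limma adjusted p = 0.0111). Its other probe gave -1.61, and its call was lost in 6 of 19 alternative settings.

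Among growth signaling genes DUSP6, FGF19 and MAML3 passed higher. DUSP6, a phosphatase that switches off ERK, had log2 levels of -0.17, -0.02 and -0.81 with PBS and 1.26, 1.35 and 1.02 with Pirfenidone. The lowest Pirfenidone array exceeded the highest PBS array by more than 1 unit, and the log2 fold change was 1.54 ± 0.30 (standard error, adjusted p = 0.00752 by limma). It was the only one of 21 MAPK feedback genes to pass, and the list median was 0.35. FGF19, a hormone that restrains bile acid synthesis, was well above background on no PBS array and on all 3 Pirfenidone arrays. Its measured log2 levels were -9.02, -9.13 and -8.12 with PBS and -6.78, -6.72 and -6.22 with Pirfenidone, and it was at least 1.62-fold higher (limma adjusted p = 1.6e-05). The measured difference of 2.18 has no meaning as a fold, since the PBS level is only a bound. FGF19 entered the test only through its level with Pirfenidone, and after normexp background correction its difference was 0.48 (adjusted p = 0.948 by limma). EGFR, the driver gene of the line, had levels of 0.35, 0.50 and -0.01 with PBS and 0.80, 0.91 and 0.75 with Pirfenidone, giving a log2 fold change of 0.54 ± 0.18 (standard error, adjusted p = 0.08 by limma), and its groups did not overlap. Its adjusted p by limma with the block was 0.00603, and its other probes gave 0.31 and 0.09. Groups did not overlap for 33.4% of all genes tested. None of the 14 ERBB receptor and EGF ligand genes passed in either direction, also with the block, and 4 were higher and none lower at an unadjusted p of 0.05. The Notch coactivator MAML3 rose by 1.64, a call lost in 15 of 19 alternative settings and not shared by its other probes (0.25 and 0.38).

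Of 24 checkpoint and activating immune ligands ULBP1 and TNFSF4 passed higher and RAET1E passed lower, with a median of 0.09. ULBP1 and RAET1E are stress ligands of the NKG2D receptor of natural killer cells. ULBP1 had log2 levels of -1.0, -0.92 and -1.82 with PBS and 0.59, 0.61 and 0.85 with Pirfenidone, without overlap, and a log2 fold change of 1.93 ± 0.33 (standard error, adjusted p = 0.00364 by limma). Its other probe gave 1.94. RAET1E fell by 1.13 on the log2 scale (limma adjusted p = 0.0272) and its other probe gave -1.02. This call was lost in 11 of 20 alternative settings, among them each left-out pair, the left-out Pirfenidone array of replicate 3 and the average of replicates 1 and 2. TNFSF4, the ligand of the T cell receptor OX40, was well above background on no PBS array and was at least 3.16-fold higher (limma adjusted p = 0.0294), a call lost in 11 of 19 alternative settings, including each left-out array. CD274, which encodes PD-L1, had levels of -1.96, -2.09 and -2.09 with PBS and -1.76, -1.72 and -1.84 with Pirfenidone, giving a log2 fold change of 0.27 ± 0.24 (standard error, adjusted p = 0.582 by limma). Of 39 interferon-stimulated genes none passed, also with the block, and of 37 cytokines and their regulators none passed higher or lower without the block and 3 higher and none lower with it. At an unadjusted p of 0.05, 5 and 7 were higher and 3 and 4 lower in these lists. Complement factor B (CFB) rose by 1.11 (limma adjusted p = 0.047), a call lost in 14 of 20 alternative settings.

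Single members of other lists passed. BBC3, which encodes the cell death protein PUMA, had log2 levels of -0.14, 0.01 and 0.35 with PBS and 0.95, 0.98 and 1.79 with Pirfenidone, and rose by 1.16 ± 0.26 (standard error, adjusted p = 0.0138 by limma) on the log2 scale. It was the only p53 target of 27 to pass, a call lost in 7 of 20 alternative settings. CDKN1A, also of the cell cycle lists, rose below 2-fold, by 0.95. CRY1, a repressor of the circadian clock, had levels of -2.98, -2.89 and -3.26 with PBS and -4.01, -4.21 and -4.24 with Pirfenidone, each of the 3 Pirfenidone arrays lower than the lowest PBS array, and a log2 fold change of -1.11 ± 0.16 (standard error, adjusted p = 8.6e-04 by limma). ULK1, the kinase that starts autophagy, rose by 1.11 ± 0.20 (standard error, adjusted p = 0.00538 by limma) on the log2 scale, and ULK2 (0.75), GABARAPL1 (0.60) and SQSTM1 (0.58) rose below 2-fold. GCNT3, an enzyme that branches mucin sugars, rose by 1.20 (limma adjusted p = 0.0129), with 1 of 3 PBS arrays well above background. Its call was lost in 7 of 19 alternative settings, the lowest log2 fold change among them being 0.32.

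**Figure D4:**
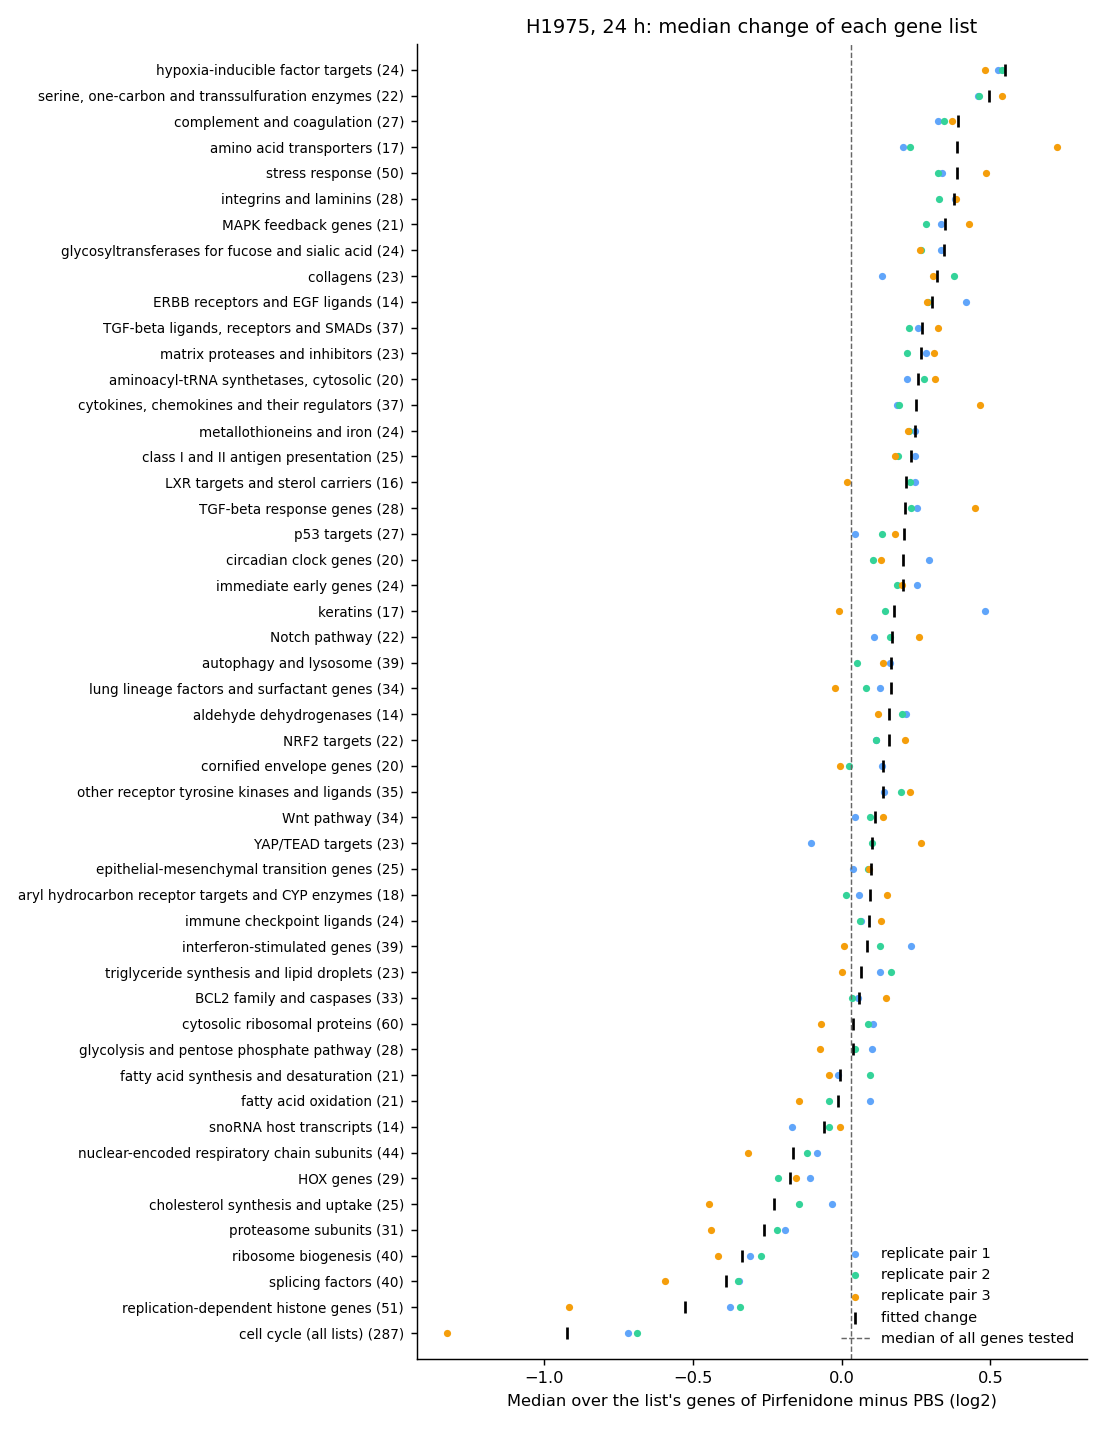
Median change with Pirfenidone at 24 h in H1975 cells (horizontal axis, log2) of the cell cycle and stress lists and of the 48 function lists (vertical axis, with the number of genes tested), for the fit (black bars) and for each replicate pair (colored points). The dashed line is the median of all genes tested (0.03). Hypoxia targets and the serine list stand highest, and cell cycle, histone and splicing genes lowest, where pair 3 is the lowest of the pairs.

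The changes at 24 h were set beside those at 6 h, which come from other samples of the line. Of the 154 higher genes outside the set-aside lists 148 had the same sign at 6 h and 31 passed the same way there, where 0.471% of all genes passed higher. Of the 72 lower genes these counts were 60 and 2, where 0.0906% of all genes passed lower. The share of all genes with the same sign at both times was not counted, so the sign counts have no background to compare with. The test of the difference between the times passed for 1 of 16561 genes (0.00604%), the cell cycle gene MXD3, and for no gene outside these lists. With the replicate pair as a block the same test passed for 45 probes. At 6 h the log2 fold change was 2.85 for GRAMD1B, 2.58 for SCARA5, 1.56 for SLC7A11, 1.04 for PHGDH and 1.40 for CTH, all of which passed there. For the histones HIST1H1A and HIST1H4L it was -0.17 and 0.12, and for KLK6 and ITGB3 it was -0.12 and -0.02, none of which passed.

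In A549 cells at 24 h none of the 226 genes passed in the same direction, also with the replicate pair as a block, and 1 of the higher and none of the lower genes did so at an unadjusted p of 0.05. Of all genes tested none passed higher there and 2 (0.0121%) passed lower. The A549 pair of replicate 3 ran opposite to the other pairs, and whether its labels are crossed was not tested. With it 48 of 154 higher and 45 of 72 lower genes had the same sign as in H1975, and without it 107 and 63 did. For these counts too the share of all genes was not counted. The difference between the lines itself passed for 36 of 16561 genes (0.217%), and 21 of the higher and 2 of the lower genes outside the set-aside lists were among them. Without the A549 pair of replicate 3 these counts were 9 and 2. PHGDH differed by 1.94 (limma adjusted p = 0.0089), with a log2 fold change of 1.94 in H1975 and 0.00 in A549. Without that pair the change in A549 was 0.51 and the difference still passed, as did FGF19 and FLJ43315 among the genes named here. SLC7A11, PSAT1, GPT2 and CSRP3 passed with the pair and not without it. FGF19 was below background with PBS in H1975 and entered the test only through its level with Pirfenidone, so its difference adds little.

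**Figure D5:**
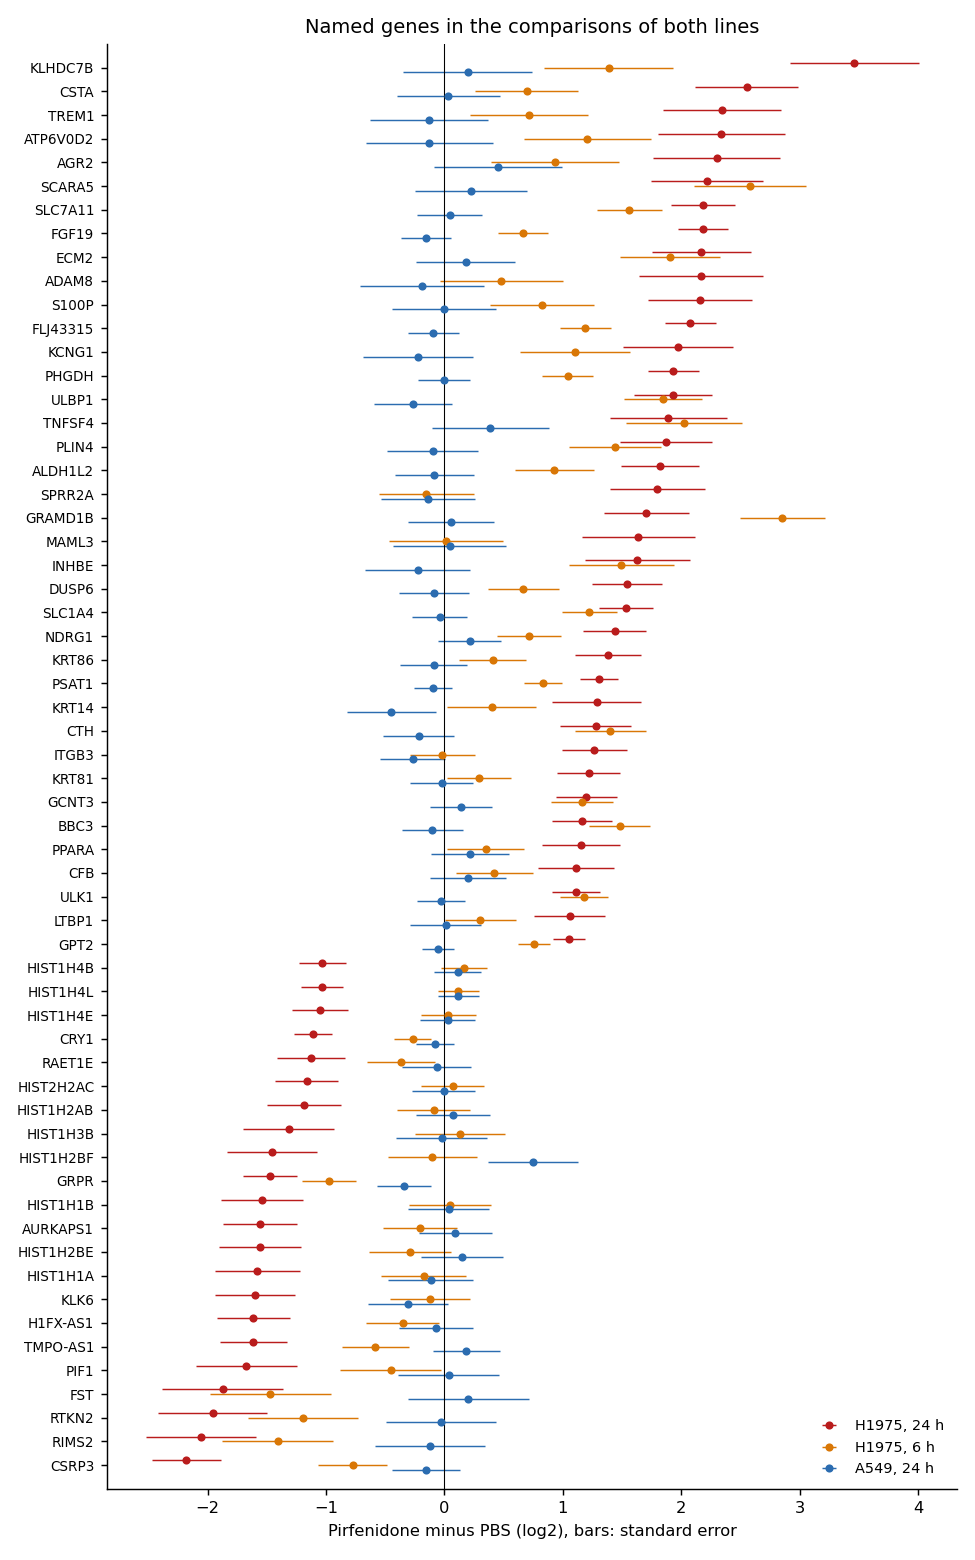
Change with Pirfenidone (horizontal axis, log2, points with standard errors) of the named genes outside the set-aside lists that passed in H1975 cells at 24 h (red), beside H1975 at 6 h (orange) and A549 at 24 h (blue). Red and orange points lie on the same side of 0 for most genes, the histone genes at the lower part lie near 0 at 6 h, and blue points lie within 1 unit of 0.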

How the data were processed

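The intensity values are the processed signals of Agilent Feature Extraction (version 11.5.1.1), background-subtracted by the authors' scanner software and deposited per array. Their log2 was taken and the 75th percentile of each array over non-control spots subtracted, and spots of a probe were averaged. A deposited table of log2 values, centered by the authors on the median of each probe with column medians from -0.163 to 0.156 (the scaling of its arrays stays unknown), served as an alternative.

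Probes were kept (23827 in all) where 1 group or more had all of its 3 arrays well above background. Array genes carry the names of the array files (hg19), and 26377 of 34127 probes matched RefSeq by accession. limma 3.58.1 in R 4.3.3 was fitted to all 24 arrays with 1 mean per group of 8 and no block (16 residual degrees of freedom), and p-values were adjusted by Benjamini-Hochberg over all probes. The fit was also run on simulated data with independent noise on each array. The arrays of a pair are correlated here, so that run does not measure the effect of pairing. The number of arrays limits the precision, and a permutation of 3 against 3 arrays cannot go below a two-sided p of 0.1.

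Deviations from the group means correlated between the arrays of a pair (0.46, 0.53 and 0.72 over 23814 probes for pairs 1 to 3), and the run day in the file names defines the pairs. With the pair as a block 702 probes passed rather than 451. Standard errors, adjusted p and calls in the text come from the fit without the block unless the block is named. They leave this pairing unused, so a gene said not to pass may pass with the block.

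Named genes are the 12 largest increases and decreases with a gene symbol (no LOC, LINC or open reading frame name), above background on each of the 6 arrays, without overlap and outside the set-aside lists, all members of the lists that passed, 13 genes fixed by name, and the member with the smallest p of lists without a call. Other genes named were chosen after their values were seen. A fold against a group below background is a bound, taken against the higher of the lowest signal above background on the array and the probe's own. Members and lists were chosen with earlier results of these data known. The cell cycle lists include those of Seurat 5.3.0.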

Additional observations from a re-analysis of the deposited data

Results flagged for a closer look

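The change at 24 h differed between H1975 and A549 for 8 of the genes named above, by limma's test of the difference itself. For SLC7A11 the change in H1975 minus that in A549 was 2.14 on the log2 scale (limma adjusted p = 0.0224), for FLJ43315 2.17 (0.00311), for GPT2 1.1 (0.0173), for PHGDH 1.94 (0.0089), for PSAT1 1.40 (0.00956), for FGF19 2.34 (0.00118) and for CHAC1 3.08 (0.0121). CSRP3 differed in the other direction, by -2.03 (0.0469). Without the A549 pair of replicate 3, which ran opposite to the other A549 pairs, the differences were 1.75 for SLC7A11, 1.87 for FLJ43315, 0.997 for GPT2, 1.43 for PHGDH, 1.13 for PSAT1, 2.25 for FGF19, 2.57 for CHAC1 and -2.13 for CSRP3, and those of FLJ43315, PHGDH and FGF19 still passed at limma adjusted p of 0.0138, 0.0162 and 0.0156. FGF19 was below background with PBS in H1975 and entered the test only through its level with Pirfenidone, so its difference is no measure of size.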

How the results depend on the processing

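Of the settings tried, the count of probes that passed at 24 h (451) was 172 after normexp background correction, 143 with the 6 arrays alone, 33 with Holm adjustment, 170 with replicates 1 and 2 averaged, 1150 at a limit of 1.5-fold and 1492 with no fold limit, and 66 to 478 with arrays or pairs left out. With the replicate pair as a block it was 702, also with the 6 arrays alone. For the genes outside the cell cycle and stress lists (226) these counts were 71, 97, 22, 101, 654, 911, 46 to 229, 408 and 417. The share of them that was higher, 68.1%, was 77.3% with the 6 arrays alone or with Holm adjustment, 57% with no fold limit, 80.3% without the Pirfenidone array of replicate 3 and 82.6% without both replicate 3 arrays. Because the spread was taken from all 24 arrays, the A549 arrays also enter the H1975 calls. Without both A549 24 h arrays of replicate 3, 421 genes passed in H1975 at 24 h rather than 341, all 226 among them. The difference between the lines (46 probes) was 10 after normexp, 26 over probes above background on all 24 arrays, 12 with Holm adjustment, 14 with replicates 1 and 2 averaged, 175 with the slide as a block, 397 with the replicate block, 17 without the A549 pair of replicate 3 and 12 to 51 with arrays or pairs left out. The difference between the times (1 probe) was 0 after normexp, with the 12 H1975 arrays or with replicates 1 and 2 averaged, 2 after quantile normalization, at 1.5-fold or with no limit, 4 without the filter on dim probes, 25 with the slide as a block, 45 with the replicate block and 0 to 5 with arrays or pairs left out. No named gene that passed changed direction in any setting, and list medians changed sign only where they were below 0.2 in size. Averaging replicates 1 and 2, a setting chosen after seeing the data, ended 36 calls of named genes. The cause of these changes was not tested. Signal over background limits genes near background, whose folds are bounds.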

Other observations

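Of the 226 genes outside the set-aside lists, 124 higher and 58 lower belonged to no list, and those named here were chosen after their values were seen. They are single genes and stand for no group. Higher were FPR1 (1.54 on the log2 scale), a receptor for bacterial peptides, IL20RB (1.81), IL21R (1.44) and IL18R1 (1.08), which are interleukin receptor chains, CCL17 (1.57), a chemokine, and SPP1 (1.95), which encodes osteopontin. IL20RB had log2 levels of -1.24, -1.17 and -1.88 with PBS and 0.52, 0.62 and 0.00 with Pirfenidone, and SPP1 had levels of -4.00, -3.60 and -5.06 with PBS and -2.34, -2.18 and -2.28 with Pirfenidone. Also higher were SCN4A (1.93), a sodium channel, and ATP2A3 (1.22), a calcium pump. BEST1, a chloride channel, was well above background on no PBS array and was at least 2.04-fold higher. PCK2, the mitochondrial phosphoenolpyruvate carboxykinase, had levels of -1.46, -1.50 and -1.56 with PBS and 0.06, 0.02 and 0.67 with Pirfenidone and a log2 fold change of 1.75 ± 0.23 (standard error, adjusted p = 4.5e-04 by limma). It also passed at 6 h (1.23).

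Among the lower genes in no list, FAM111A, a protease of replication forks, had log2 levels of -1.21, -1.38 and -1.46 with PBS and -2.45, -2.45 and -3.37 with Pirfenidone and a log2 fold change of -1.41 ± 0.23 (standard error, adjusted p = 0.00315 by limma). WDR62 (-1.42), a protein of spindle poles, KNSTRN (-1.0), a protein of kinetochores, and PHF19 (-1.40), a Polycomb component, fell as well, as did APOBEC3B (-1.10), a cytidine deaminase.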
